A study of Saccharomyces cerevisiae with 6 samples.

Results

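The genes described here encode the machinery that brings secretory proteins into the endoplasmic reticulum (ER) of budding yeast, folds and glycosylates them there, and removes those that fail to fold. They comprise 35 named genes out of 5449 genes measured, taken by symbol from the platform annotation with the probe set of highest mean signal for each gene. All 35 were found, each on 1 probe set, and all 35 lay above the level of probe sets for the other yeast species on the array (4.28 on the log2 scale) on every array. Expression was compared between 3 samples labelled nab2-1 and 3 labelled wild type, each hybridised to 1 Affymetrix array. Both strains are given as W303-1A and were grown to exponential phase in YPD rich medium at 30ºC. The nab2-1 strain carried a deletion of the chromosomal NAB2 gene marked with HIS3 and the nab2-1 allele on a centromeric plasmid marked with LEU2, whereas the wild type is labelled W303-1A alone, so the markers and the plasmid cannot be told apart from the allele. NAB2 encodes a nuclear protein that binds poly(A) tails and acts in mRNA export.

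Secretory proteins enter the ER through the Sec61 channel and meet the Hsp70 chaperone Kar2 (BiP) on the inner side, while disulphide isomerases join their cysteines and the oligosaccharyltransferase attaches a preassembled glycan to asparagines. Proteins that stay unfolded are sent back to the cytosol, where the Hrd1 ubiquitin ligase marks them for the proteasome. When unfolded proteins accumulate, the sensor Ire1 cleaves HAC1 mRNA, which is then joined by tRNA ligase into the form that encodes the transcription factor of the unfolded protein response (UPR). KAR2, PDI1 and EUG1 are well-known targets of that response. A signal from 1 probe set gives the amount of RNA it detects and does not separate spliced from unspliced HAC1.

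Several properties of the samples bear on every value below. NAB2 itself had a log2 signal of 13.71 ± 0.12 (SD, n = 3) on the nab2-1 arrays and 12.36 ± 0.07 on the wild type arrays; the position of its probes relative to the mutation is unstated, so this signal checks no label. The median difference of the genes on chromosomes I, XI and XVI was 0.73, 0.77 and 0.75 on the log2 scale, against -0.14 to -0.08 on the other 13 chromosomes, so each difference is also given relative to the median of its chromosome. Probe sets for spiked Bacillus poly(A) controls were lower in nab2-1 by 0.27, with an SD of 0.19 among the wild type and 0.05 among the nab2-1 arrays. Scaling to them raises every difference by 0.27 and moves the median of all genes from -0.05 to 0.22. The scaling shifts each array by its own control mean, which was 7.38, 7.22 and 7.59 on the wild type arrays. This adds the spread of the controls to every gene. A call can then be lost through a wider spread as well as through a smaller difference. W303-1A is a strain of mating type a, yet the 4 MATalpha-specific genes had signals of 12.15 to 14.15 over the 6 arrays and the 7 MATa-specific genes 6.37 to 10.16, all 11 above the level of the other yeast. Markers of the mating type that the strain name does not give were thus present on all 6 arrays. The groups also differed in these markers. All 7 MATa-specific genes were higher in nab2-1, by 0.52 (ASG7) to 1.98 (MFA1). MF(ALPHA)1, MF(ALPHA)2 and STE3 were higher by 0.22, 0.48 and 0.42, and SAG1 was at -0.18. Of these genes STE6 and STE3 lie on chromosome XI and MF(ALPHA)1 on XVI. Whether the mating-type markers or their differences bear on the ER genes was not tested. Since no label says whether replicate samples are separate cultures, the p-values rest on a spread that could be technical.

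Most of the ER genes were modestly lower in nab2-1. As deposited, 29 of the 35 fell (82.9%) and 3 rose, while 3 did not pass the test (limma, adjusted p under 0.05 over all genes). Over all genes tested, 67.4% passed, 37.2% being lower and 30.2% higher. With scaling to the spiked controls 13 of the 35 were lower and 5 higher, against 11.4% and 39.1% of all genes. Relative to chromosome medians 24 were lower and 3 higher, against 31.8% and 29.6%. The median difference of the 35 genes was -0.45, or -0.40 relative to the median of all genes both as deposited and with the spiked controls, since that scaling moves all genes alike. No gene changed as much as 2-fold, the extremes being -0.98 for EPS1 and 0.98 for ERV2.

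The falls differed in size. A fall of at least 0.5 was found for 14 of them (40.0%, against 16.0% of all genes): HAC1, SIL1, SCJ1, EUG1, MPD1, MPD2, EPS1, HRD1, HRD3, DFM1, USA1, CUE1, SEC63 and STT3. All 14 were also lower relative to chromosome medians, and 13 of them, all but HAC1, when scaled to the spiked controls. None of the 14 lies on chromosome I, XI or XVI, and the medians of their chromosomes were -0.14 to -0.08. Falls chosen for this size were therefore bound to stay negative relative to those medians. Of the 29 falls, 22 were also called lower relative to chromosome medians. On the arrays the 3 nab2-1 values lay below the 3 wild type values for 29 genes and above them for 3, where 41.1% and 32.8% of all genes did so.

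**Figure D1:**
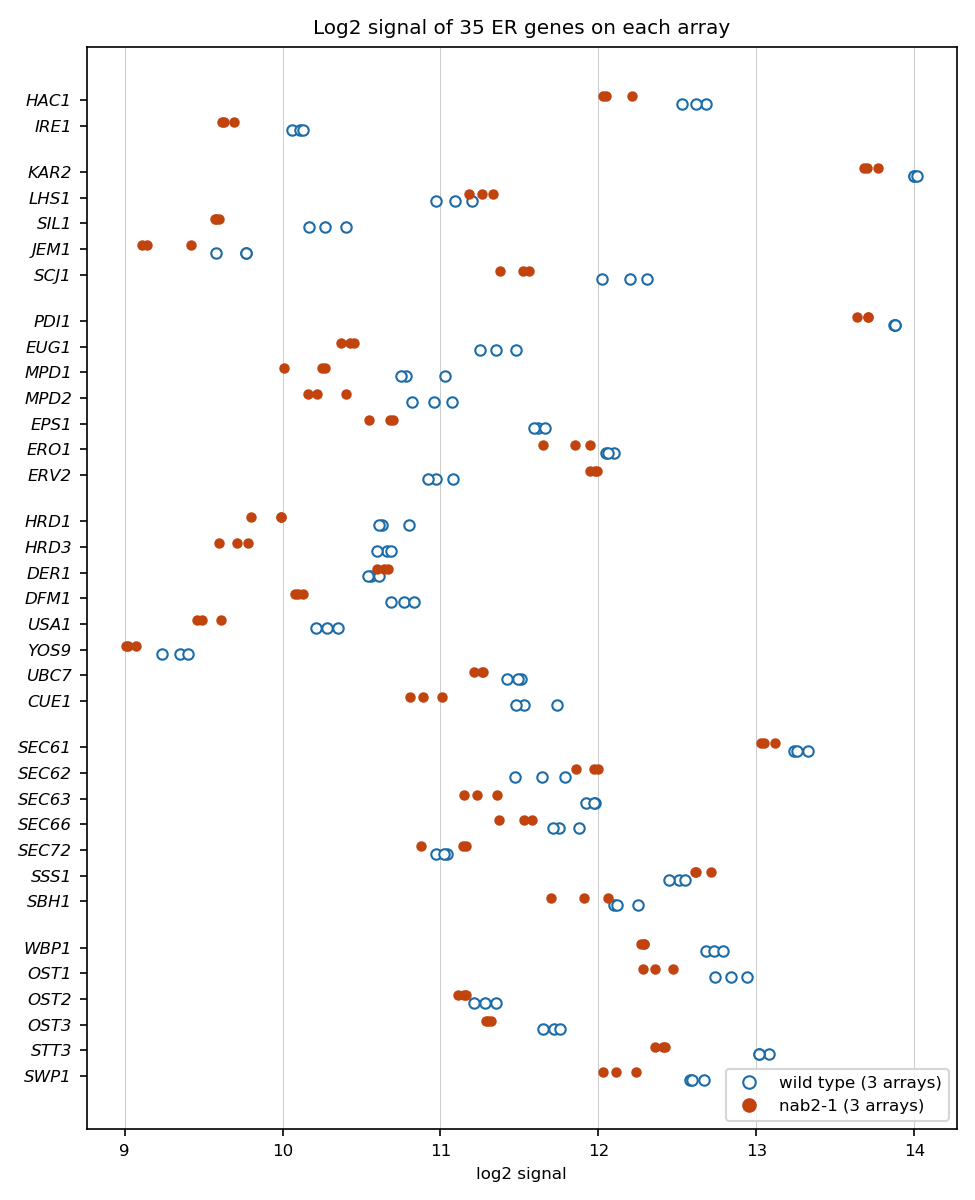
Log2 signal (horizontal axis) of each of the 35 genes on the 3 nab2-1 arrays (filled) and the 3 wild type arrays (open), grouped by role from UPR sensor and factor at the top to glycan transfer at the bottom. The nab2-1 points lie left of the wild type points for 29 genes, right of them for ERV2, SEC62 and SSS1, and among them for LHS1, DER1 and SEC72.

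Both genes of the UPR signal itself were lower. HAC1 (YFL031W, chromosome VI) had log2 signals of 12.05, 12.03 and 12.21 on the nab2-1 arrays and 12.53, 12.68 and 12.62 on the wild type arrays. The groups did not overlap, and HAC1 fell by 0.51 ± 0.07 (SE), to 70.1% of the wild type signal (limma adjusted p = 0.00034). IRE1 (YHR079C, chromosome VIII), the transmembrane kinase and nuclease, had signals of 9.62, 9.69 and 9.63 in nab2-1 and 10.06, 10.11 and 10.13 in the wild type. It fell by 0.45 ± 0.05 (adjusted p = 0.0001), again with the groups apart. Relative to their chromosomes the 2 genes were at -0.42 and -0.34 and both still passed. Scaled to the spiked controls they were at -0.24 (adjusted p = 0.17) and -0.18 (adjusted p = 0.32), so neither call was kept.

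Among the Hsp70 chaperones of the ER lumen and their cofactors, 4 of 5 genes fell and 0 rose, and 2 were lower and 1 higher with the spiked controls. KAR2 (YJL034W, chromosome X), whose product BiP binds entering and unfolded proteins, had log2 signals of 13.70, 13.77 and 13.68 in nab2-1 and of 14.00, 14.00 and 14.02 in the wild type. It fell by 0.29 ± 0.05 (adjusted p = 0.00094). The groups did not overlap, but when scaled to the spiked controls the difference was -0.02 (adjusted p = 0.93). SIL1, a nucleotide exchange factor for Kar2, had signals of 9.60, 9.58 and 9.57 in nab2-1 and 10.18, 10.27 and 10.40 in the wild type, and fell by 0.70 ± 0.06 (adjusted p = 5.5e-05). SCJ1, a lumenal J protein that stimulates Kar2, had signals of 11.56, 11.52 and 11.38 against 12.20, 12.02 and 12.31, and fell by 0.69 ± 0.08 (adjusted p = 0.00025). In each gene the groups were apart, and both genes stayed lower relative to their chromosomes (-0.60 and -0.55) and with the spiked controls (-0.42 for each). JEM1, a further J protein, fell by 0.48 ± 0.10 (adjusted p = 0.0031) and was at -0.21 with the spiked controls (adjusted p = 0.24).

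LHS1 (YKL073W), an Hsp70 relative that works as an exchange factor beside Sil1, lies on chromosome XI. Its log2 signals were 11.33, 11.26 and 11.18 in nab2-1 and 11.09, 10.97 and 11.20 in the wild type, so that the groups overlapped (0.17 ± 0.07, adjusted p = 0.07). Relative to the median of chromosome XI, LHS1 was at -0.60 (adjusted p = 0.00033), close to the value of SIL1 relative to chromosome XV (-0.60). Without wild type replicate 3 the difference as deposited was 0.23 and passed (adjusted p = 0.033). With the spiked control scaling LHS1 was higher by 0.44 (adjusted p = 0.0074). Relative to chromosome medians all 5 genes of the chaperone group were lower.

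The genes of disulphide bond formation covered the widest range. Of 7 genes 6 fell and 1 rose, and with spiked control scaling 4 were lower and 1 higher. PDI1 (YCL043C, chromosome III), the essential protein disulphide isomerase, had log2 signals of 13.64, 13.71 and 13.71 in nab2-1 and 13.87, 13.88 and 13.88 in the wild type. The groups were apart, but the fall was small, at 0.19 ± 0.04 (adjusted p = 0.0066), and PDI1 was at -0.05 relative to its chromosome (adjusted p = 0.36) and at 0.08 with the spiked controls (adjusted p = 0.66). Its 4 relatives had larger differences, and that contrast was not itself tested. EPS1 (YIL005W, chromosome IX), a membrane-bound member of the family, had signals of 10.55, 10.68 and 10.70 against 11.62, 11.59 and 11.66 and fell by 0.98 ± 0.06, to 50.7% of the wild type (adjusted p = 6.3e-06). EUG1 (YDR518W, chromosome IV), a non-essential homologue of PDI1, had signals of 10.43, 10.45 and 10.37 against 11.35, 11.25 and 11.48.

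EUG1 was thus at 52.0% of the wild type (adjusted p = 1.6e-05), and the gap between its lowest wild type and highest nab2-1 array was 0.80. MPD1 had signals of 10.27, 10.25 and 10.01 in nab2-1 and 10.78, 10.75 and 11.03 in the wild type. MPD2 had signals of 10.40, 10.16 and 10.22 against 10.96, 10.82 and 11.07. Both genes, whose products can replace part of the function of Pdi1 when overproduced, fell by similar amounts: MPD1 by 0.67 ± 0.10 and MPD2 by 0.69 ± 0.09. All 4 relatives of PDI1 remained lower relative to chromosome medians (-0.85 for EPS1, -0.83 for EUG1, -0.59 for MPD2, -0.58 for MPD1) and with the spiked controls (-0.71, -0.67, -0.41 and -0.40 in the same order).

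The 2 oxidases that supply disulphides differed in sign as deposited, and ERO1 was at 0.02 with the spiked controls. ERO1, the flavin enzyme that oxidises Pdi1, fell by 0.25 ± 0.08 (adjusted p = 0.023), with nab2-1 arrays at 11.95, 11.85 and 11.65 and wild type arrays at 12.10, 12.05 and 12.06. The smallest gap between the groups was 0.10, and leaving out wild type replicate 1 or 3 ended the ERO1 call (adjusted p = 0.07 and 0.053), as did the chromosome XIII median (-0.11, adjusted p = 0.25). ERV2 (YPR037C), a small ER sulfhydryl oxidase, had log2 signals of 11.95, 11.98 and 11.99 in nab2-1 and 10.97, 10.92 and 11.08 in the wild type. It rose by 0.98 ± 0.05, or 1.98-fold (adjusted p = 5.7e-06), the largest rise of the 35 genes. ERV2 lies on chromosome XVI, and relative to the median of that chromosome it was at 0.23 (adjusted p = 0.0077).

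**Figure D2:**
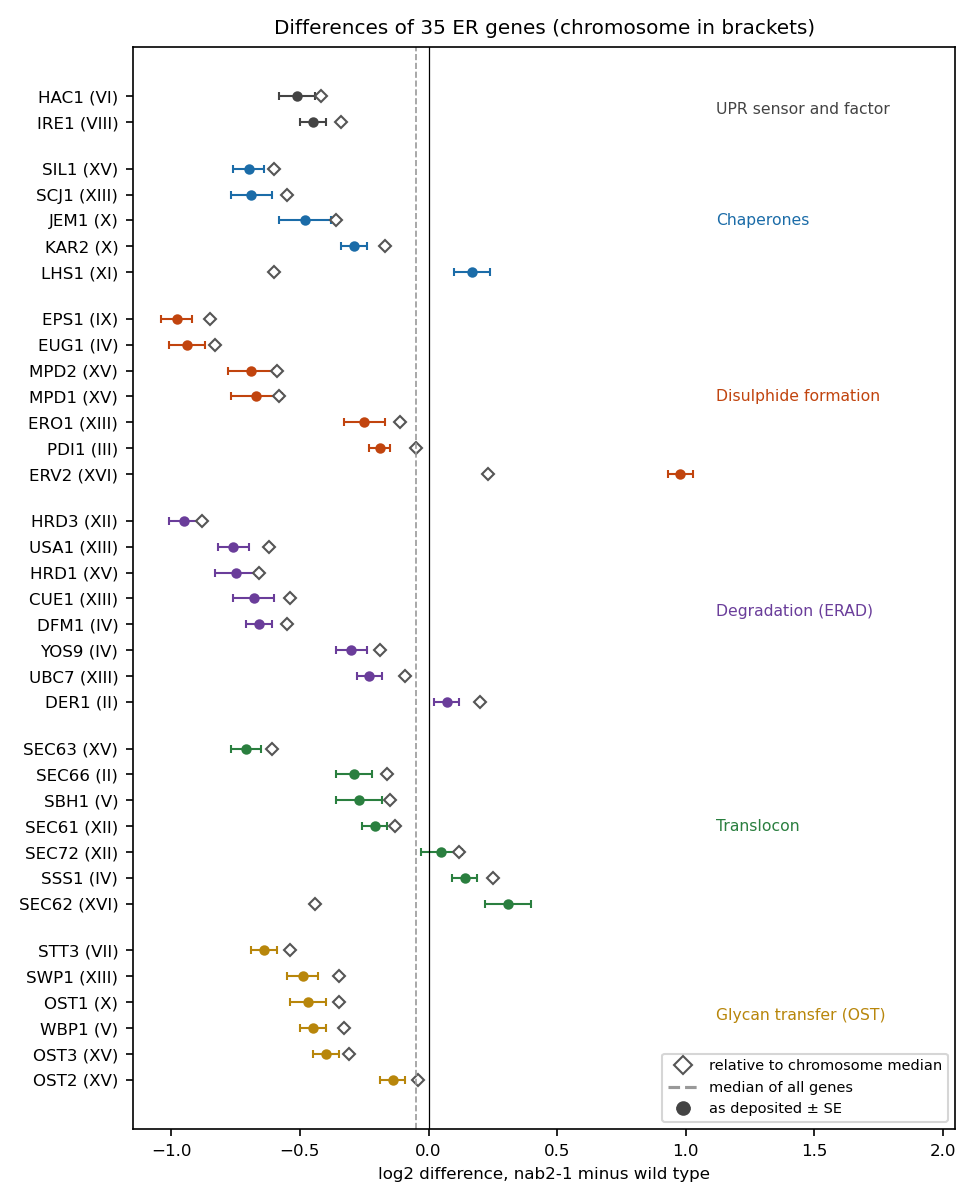
Log2 difference (nab2-1 minus wild type) of each gene with its SE from limma (filled points, n = 3 arrays per group) and relative to the median of its chromosome (open diamonds), ordered within each role; the dashed line is the median of all genes, -0.05. EPS1, HRD3 and EUG1 stand furthest left, and the diamonds of LHS1, SEC62 and ERV2 lie well left of their filled points.

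Genes of ER-associated degradation fell in 7 of 8 cases, and 5 were lower and 1 higher with the spiked controls. HRD3 (YLR207W, chromosome XII), which recruits substrates to the ligase, had log2 signals of 9.60, 9.78 and 9.71 in nab2-1 and 10.66, 10.60 and 10.69 in the wild type. HRD1 (YOL013C, chromosome XV), the ubiquitin ligase itself, had signals of 9.80, 9.99 and 9.99 against 10.63, 10.61 and 10.80. USA1, the scaffold that holds the Hrd1 complex together, had signals of 9.46, 9.49 and 9.61 against 10.21, 10.28 and 10.35. In each the groups were apart, with HRD3 at 51.6%, HRD1 at 59.3% and USA1 at 59.1% of the wild type signal (adjusted p = 9.3e-06, 9.2e-05 and 2.9e-05). CUE1, the membrane anchor of the ubiquitin-conjugating enzyme Ubc7, had signals of 11.01, 10.81 and 10.89 against 11.53, 11.48 and 11.74 and fell by 0.68 ± 0.08 (adjusted p = 0.00024). UBC7, the gene of the enzyme it anchors, fell by 0.23 ± 0.05 (adjusted p = 0.0041) and was at -0.09 relative to its chromosome (adjusted p = 0.15) and at 0.05 when scaled to the spiked controls. YOS9, a lectin that reads trimmed glycans, fell by 0.30 ± 0.06 (adjusted p = 0.0026) and was at -0.02 with that scaling.

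DER1 and DFM1 encode related rhomboid-like membrane proteins. DFM1 had log2 signals of 10.13, 10.10 and 10.09 in nab2-1 and 10.77, 10.69 and 10.83 in the wild type, and fell by 0.66 ± 0.05 (adjusted p = 2.6e-05). DER1, which forms part of the exit route with Hrd1, had signals of 10.60, 10.67 and 10.64 against 10.56, 10.54 and 10.61. Its groups overlapped and it did not pass (0.07 ± 0.05, adjusted p = 0.21), but it was higher relative to chromosome II (0.20, adjusted p = 0.0083) and with the spiked controls (0.34, adjusted p = 0.043). The difference between DER1 and DFM1 was not itself tested.

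The translocon genes had the lowest share of falls among the 6 role groups, with 4 of 7 lower and 2 higher, a median of -0.21, and 1 lower and 2 higher with the spiked controls. SEC61, the channel, fell by 0.21 ± 0.05 (adjusted p = 0.0077), with nab2-1 arrays at 13.03, 13.12 and 13.05 and wild type arrays at 13.24, 13.26 and 13.33. It was at -0.13 relative to its chromosome (adjusted p = 0.054) and at 0.07 with the spiked controls. The small channel subunits differed in sign: SSS1, the gamma subunit, was higher by 0.14 ± 0.05 (adjusted p = 0.043), and SBH1, the beta subunit, lower by 0.27 ± 0.09 (adjusted p = 0.037). Both calls were near the threshold, that of SSS1 being lost without nab2-1 replicate 2 (0.11, adjusted p = 0.13), nab2-1 replicate 3, wild type replicate 1 or wild type replicate 2, and that of SBH1 in 5 of the 6 fits that left out an array.

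SEC63 (YOR254C, chromosome XV), the J protein that recruits Kar2 to the channel, stood apart in its group. Its log2 signals were 11.15, 11.36 and 11.23 in nab2-1 and 11.98, 11.92 and 11.97 in the wild type, and it fell by 0.71 ± 0.06 (adjusted p = 4.7e-05) and was at -0.43 with the spiked controls (adjusted p = 0.0093). Of its partners in the complex for post-translational import, SEC66 fell by 0.29 ± 0.07 (adjusted p = 0.0096; -0.16 and adjusted p = 0.089 relative to its chromosome) and SEC72 was at 0.05 ± 0.08 (adjusted p = 0.62). SEC62 (YPL094C, chromosome XVI) had signals of 11.86, 12.00 and 11.97 in nab2-1 and 11.64, 11.47 and 11.79 in the wild type. It rose by 0.31 ± 0.09 (adjusted p = 0.016), a call lost without nab2-1 replicate 2 (0.28, adjusted p = 0.054), and it was at -0.44 relative to chromosome XVI (adjusted p = 0.0033). SEC62 and SEC63, whose products act in 1 complex, therefore differed in sign as deposited and had the same sign relative to their chromosomes.

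All 6 oligosaccharyltransferase genes fell, with a median of -0.46. STT3 (YGL022W, chromosome VII), the catalytic subunit, had log2 signals of 12.36, 12.42 and 12.41 in nab2-1 and 13.08, 13.02 and 13.02 in the wild type, and was at 64.0% of the wild type (adjusted p = 1.7e-05). SWP1, OST1, WBP1 and OST3 lay close together, falling by 0.49, 0.47, 0.45 and 0.40 with SEs of 0.05 to 0.07 and no overlap between the groups. OST2 fell by 0.14 ± 0.05 (adjusted p = 0.0499), at the edge of the threshold, and lost its call in 5 of the 6 fits without an array and relative to its chromosome (-0.04). Relative to chromosome medians 5 of the 6 were lower. With the spiked controls only STT3 of the 6 was called (-0.37, adjusted p = 0.029). The 3 remaining subunit genes, taken from the pathway lists, were OST6, lower by 0.81 ± 0.09 (adjusted p = 0.00019), OST4, lower by 0.20 ± 0.06 (adjusted p = 0.024), and OST5, at -0.09, which did not pass. OST3 and OST6 encode alternative subunits of the same position in the enzyme.

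WBP1 was also read by 3 control probe sets along its transcript. They measure the same samples on the same 6 arrays and are not an independent check. At the 5' end the log2 signals were 11.55, 11.18 and 11.18 in nab2-1 and 11.92, 11.95 and 12.19 in the wild type. In the middle they were 11.42, 11.25 and 11.29 against 11.91, 11.94 and 12.04. At the 3' end they were 12.27, 12.27 and 12.24 against 12.68, 12.71 and 12.79. The nab2-1 arrays were lower at all 3 positions, with differences of -0.71 ± 0.12 (adjusted p = 0.0012), -0.64 ± 0.06 (adjusted p = 7.8e-05) and -0.46 ± 0.05 (adjusted p = 9.7e-05), when these probe sets were fitted together with all genes. The mean 5' minus 3' difference of the nab2-1 arrays was -0.96 and that of the wild type arrays -0.71, and nab2-1 replicate 1 (-0.72) lay within the wild type range of -0.77 to -0.60. The values of nab2-1 replicates 2 and 3 were -1.08 and -1.06, outside that range. The change in the mean was -0.25 (two-sided exact permutation test, p = 0.30). With 3 arrays against 3 this test cannot go below 0.1, so it cannot decide whether the change exceeds the spread. For 6 other yeast genes (ACT1, EAF5, RIP1, SPT15, SRB4 and TDH1) the mean 5' minus 3' difference changed by -0.09 to -0.02 on 1 series of controls. ACT1, SPT15 and SRB4 have a second series. There SRB4 changed by -0.25 at the 5' end and -0.02 at the 3' end. SPT15 changed by -0.07 and 0.08, and ACT1 by 0.02 and 0.045, at the same ends. URA3 also has such controls and was left out of the range. It changed by -3.97 at the 5' end and 0.17 at the 3' end, and what underlies this was not tested.

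**Figure D3:**
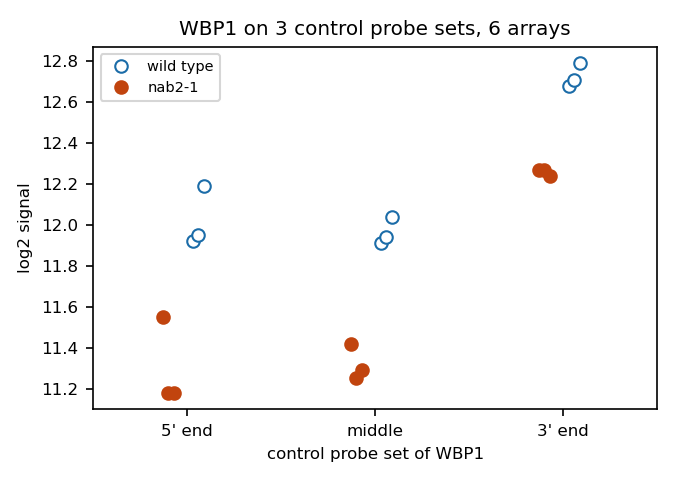
Log2 signal (vertical axis) of the WBP1 control probe sets for the 5' end, the middle and the 3' end of the transcript on the 3 nab2-1 arrays (filled) and 3 wild type arrays (open). The groups are apart at each position, by -0.71, -0.64 and -0.46 in the mean.

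The role groups and arrays were then set side by side. The medians of the difference were -0.67 for disulphide formation and for degradation, -0.48 for the chaperones and for the UPR pair, -0.46 for glycan transfer and -0.21 for the translocon. These groups hold 2 to 8 genes, and differences between them were not tested. The 32 genes on the other 13 chromosomes had a median of -0.48, against -0.11 for all genes there, and 29 of them fell and 1 rose, where 43.2% of all genes there fell and 19.8% rose. Among the wild type arrays, replicate 3 gave the highest value for 27 of the 35 genes (77.1%), compared with 40.3% of all genes. The median deviation of the 35 genes from their means over 6 arrays was 0.26 on that array, 0.19 on both other wild type arrays, and -0.21, -0.22 and -0.26 on the nab2-1 arrays. Without wild type replicate 3, 26 of the genes were lower and 4 higher, against 1855 lower and 1551 higher of all 5449 genes. Of the 32 genes called, 27 kept their call in each of the 6 fits that left out an array; the exceptions were ERO1, SEC62, SSS1, SBH1 and OST2.

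**Figure D4:**
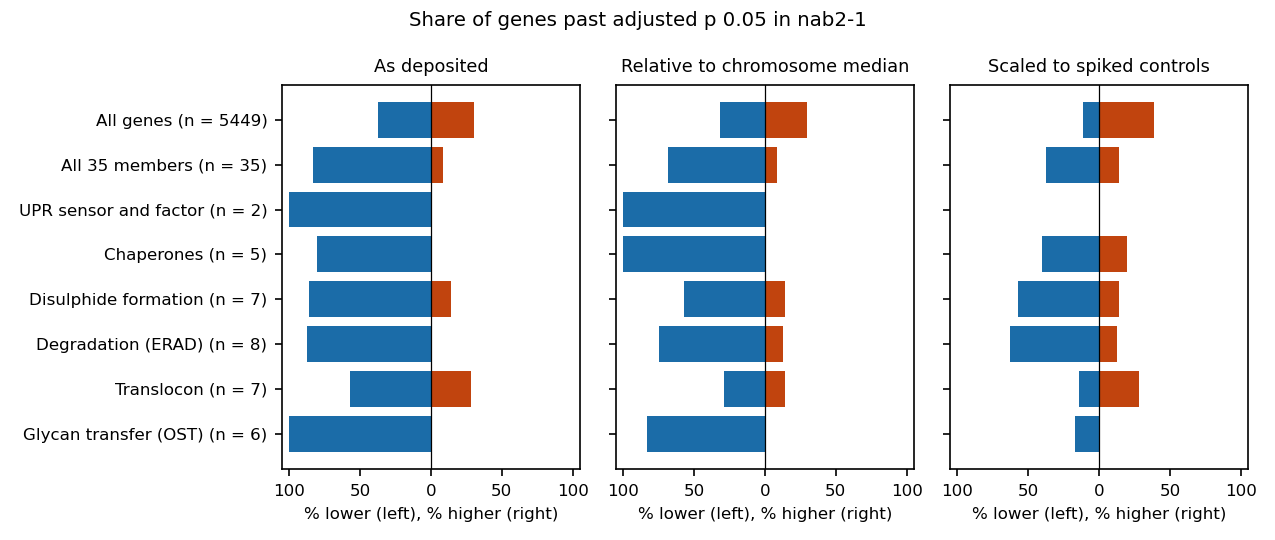
Percentage of genes lower (left of 0) and higher (right of 0) in nab2-1 at adjusted p under 0.05, for all genes, the 35 ER genes and each role group, as deposited, relative to chromosome medians and scaled to the spiked controls. Among the 35 genes 29, 24 and 13 are lower in the 3 panels, against 37.2%, 31.8% and 11.4% of all genes.

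Other genes of the early secretory pathway were read from 11 lists with 113 genes, of which 111 were measured. Together 58 fell and 18 rose, with a median of -0.18, where 37.2% of all genes were lower and 30.2% higher. With the spiked controls 23 were lower and 26 higher, against 11.4% and 39.1% of all genes. The lists with the lowest medians were both of glycan handling. All 6 glucosidase and mannosidase genes of glycoprotein folding fell (5 lower with the spiked controls), with a median of -1.07; GTB1, the regulatory subunit of glucosidase II, fell by 1.41 ± 0.06 and MNS1, the ER mannosidase, fell by 1.38 ± 0.06 (adjusted p = 2.6e-06 and 2.8e-06). Of 6 genes of O-mannosylation, which adds mannose to serines and threonines, 5 fell (5 lower with the spiked controls), with a median of -1.25. PMT3 fell from 10.63 to 8.82, a difference of -1.80 ± 0.08 (adjusted p = 2.3e-06), and PMT6 fell from 11.31 to 9.81 (adjusted p = 9.4e-07). The sixth gene, PMT2, lies on chromosome I and was at 0.04 (adjusted p = 0.48).

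Of 21 genes that build the lipid-linked glycan used by the oligosaccharyltransferase, 14 fell and 1 rose (8 lower and 2 higher with the spiked controls). ALG7, which catalyses the first step, fell by 1.09 ± 0.07 (adjusted p = 1.1e-05), and ALG12, a late mannosyltransferase, by 0.92 ± 0.06 (adjusted p = 1e-05), while DPM1, the dolichol phosphate mannose synthase on chromosome XVI, rose by 0.51 ± 0.04 (-0.24 relative to that chromosome). Of 12 genes of signal peptidase, the second translocon and tail-anchor insertion 8 fell and 0 rose, 1 being lower and 2 higher with the spiked controls. Relative to chromosome medians 6 were lower and 2 higher. GET1 fell by 0.74 ± 0.06 and SEC11, the signal peptidase catalytic subunit, by 0.60 ± 0.09. SPC1, in the same list, was at 0.78 and did not pass (adjusted p = 0.067), but it was called higher relative to chromosome X (0.90). Of 18 COPII coat and cargo receptor genes 10 fell and 4 rose (1 lower and 5 higher with the spiked controls). EMP46 fell by 0.75 ± 0.08 and ERV29 by 0.58 ± 0.07, and the rises were led by SEC16 (0.63 ± 0.11) and SEC23 (0.60 ± 0.06), both on chromosome XVI and at -0.13 and -0.15 relative to it.

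The signal recognition particle and its receptor went the other way as deposited. Of 8 genes 5 rose and 1 fell, led by SRP68 (0.80 ± 0.05) and SRP21 (0.75 ± 0.06), but all 5 that rose lie on chromosomes XI or XVI, and relative to chromosome medians 1 was higher and 4 lower. The gene of the receptor alpha subunit (YDR292C) fell by 0.33 ± 0.06 (adjusted p = 0.0028) and was at -0.06 with the spiked controls. In the list of glutathione and thiol supply, which also holds flavin genes such as FLC1 and FLC2, 3 of 5 rose and 0 fell. Relative to chromosome medians 1 of the 5 was higher and 1 lower. FLC1 was at 0.92 ± 0.06 and FLC2 at 0.84 ± 0.06. FLC1 lies on chromosome XVI and FLC2 on I, and they were at 0.17 and 0.10 relative to them. Of 17 other degradation genes 5 rose and 6 fell. With the spiked controls 7 were higher and 1 lower, where 39.1% of all genes were higher and 11.4% lower. UBX2, which brings the Cdc48 ATPase to Hrd1, fell by 0.83 ± 0.06 (adjusted p = 2.3e-05), and SSM4, the gene of the Doa10 ligase, fell by 0.55 ± 0.05 and was at -0.27 with the spiked controls (adjusted p = 0.12). ASI3, a ligase gene of the inner nuclear membrane, rose by 0.72 ± 0.07 (adjusted p = 6.5e-05), and PNG1, a cytosolic glycanase gene on chromosome XVI, rose by 0.62 ± 0.05 but was at -0.13 relative to that chromosome.

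In the lists nearest to the chaperones and the UPR signal, most genes did not pass. Of 10 other chaperones and J proteins 4 fell and 0 rose, with a median of -0.17 (1 lower and 0 higher with the spiked controls). Among them ERJ5, an ER J protein, fell by 0.68 ± 0.09 (adjusted p = 0.00028), and CHS7, needed for exit of a chitin synthase, by 0.22 ± 0.06 (0.05 with the spiked controls). Of 5 other genes of UPR signalling 2 fell and 0 rose (0 lower and 1 higher with the spiked controls). GCN5, a histone acetyltransferase gene, fell by 0.38 ± 0.05 (adjusted p = 0.0003) and NGG1, of the same coactivator, by 0.18 ± 0.06 (adjusted p = 0.034), and with that scaling they were at -0.11 and 0.10. ADA2, of that coactivator too and named after its values were seen, was at 1.19 and did not pass (adjusted p = 0.098). The counts of all 11 lists are to be read against the 37.2% of all genes lower and 30.2% higher as deposited. With the spiked controls these shares were 11.4% and 39.1%, and relative to chromosome medians 31.8% and 29.6%.

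**Figure D5:**
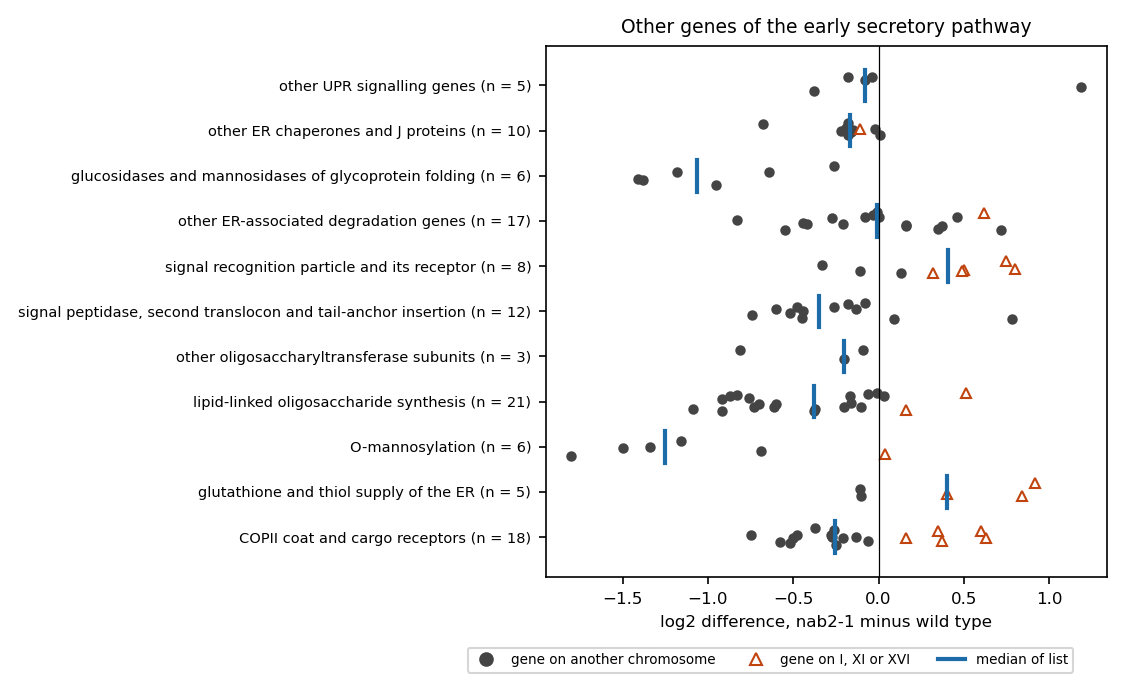
Log2 difference (nab2-1 minus wild type) of 111 other genes of the early secretory pathway in 11 lists, with genes on chromosomes I, XI and XVI as open triangles, genes of the other chromosomes as filled points and list medians as bars. The medians of O-mannosylation (-1.25) and of the glucosidases and mannosidases (-1.07) lie furthest left, and the 5 signal recognition particle genes that rose are all triangles.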

How the data were processed

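The deposited table holds log2 signals of 10928 probe sets on 6 arrays; per the submitters' processing notes the authors used GCOS, RMA and limma, with no version named; no genome build is named there. Values were used as deposited. Genes were named from the platform annotation, updated through the RefSeq table of S288C (12 symbols changed), and 5449 genes were tested. Differences were fitted in R 4.3.3 using limma 3.58.1 (eBayes after lmFit, two-sided tests, Benjamini-Hochberg adjustment over all genes, threshold 0.05). The number of arrays limits precision: the median SE of a difference was 0.063. The spiked control scaling used 36 Bacillus probe sets above the 95th percentile of the other yeast's probe sets on all arrays; how much was spiked into each sample is unstated.

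The 35 genes and the pathway lists were chosen with earlier results of these data known. Named were all 35 genes, NAB2, and up to 2 genes per pathway list and direction with the largest called differences. Array values are given for HAC1, IRE1, KAR2 and PDI1 and for called differences of at least 0.5. Array values of other genes, OST5, PMT2 and SPC1 were added after their values were seen. So were URA3, the second controls of ACT1, SPT15 and SRB4, and the group differences of the mating-type genes. Of the listed genes 2 matched through synonyms. No sequence was used here. Figures were drawn with matplotlib 3.10.9.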

Additional observations from a re-analysis of the deposited data

How the results depend on the processing

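The 32 calls among the 35 genes became 18 when scaled to the spiked controls and 14 at 1.5-fold or more; pathway calls went from 76 to 49 and 34, and all genes from 3672 to 1490 at 1.5-fold or more. With that fold 13 of the 35 were lower and 1 higher, against 669 lower and 821 higher of all 5449 genes. Leaving out 1 array in turn gave 28 to 31 calls among the 35, 71 to 80 among the pathway genes and 3337 to 3693 over all genes. Scaling to the spiked controls turned the sign of PDI1 (0.08), ERO1 (0.02), UBC7 (0.05), SEC61 (0.07), SBH1 (0.01) and OST2 (0.14), none of them then past the threshold. It moved the split of all genes to 2133 higher and 622 lower, from 1644 and 2028. Setting each difference against its chromosome's median turned LHS1 (-0.60) and SEC62 (-0.44), both then past the threshold, and SEC72 was at -0.00 without nab2-1 replicate 2. These turns follow from a shift shared by all genes or by a chromosome, or from 1 array fewer. With the chromosome medians and without chromosomes I, XI and XVI, an alternative chosen after seeing the data, 22 of 32 genes were lower and 2 higher. In that fit 1467 of all 4642 genes were lower and 1369 higher. With the replicate number as a block 29 of the 35 were called, the calls of OST2, SBH1 and SSS1 being lost. Over all genes 3514 of 5449 were then called. The correlations of same-numbered arrays were -0.191, 0.192 and -0.144, so the numbers are not shown to pair the samples, and not every array correlated best with its own number. Over 21 alternatives and all 35 genes, 637 of 728 values kept their direction and their side of the threshold.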
